A study of Bos taurus with 9 samples.

Results

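Small RNA sequencing of extracellular vesicles (EVs) from bovine follicular fluid gave read counts on 101889 genomic loci, and 316 of them (0.310%) are described here. These 316 loci carried 20000 or more counts summed over the 9 samples and were listed neither among the known and homologous miRNAs nor among the predicted miRNAs of the study. In all, 387 loci reached that count, of which 66 were in the known and homologous table and 5 in the predicted table. The fluid came from ovaries collected at an abattoir and was pooled by follicle diameter into small (3 to 5 mm), medium (6 to 9 mm) and large (over 9 mm) follicles. There were 3 pools of each size, namely small 1, 2 and 4, medium 5, 6 and 8, and large 10, 11 and 12, and the labels name no treatment. Each pool held the fluid of many follicles, healthy and atretic, so a sample is an average over animals. EVs of all sources in the fluid were sequenced together, and their cells of origin were not told apart. The loci carry no gene names, and the labelled tissue could therefore not be checked against marker genes.

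A locus is a stretch of the UMD3.1 genome covered by reads, and its count is the number of reads assigned to it. EVs are membrane-bound particles that cells release, and their small RNA is known to hold miRNAs together with fragments of longer transcripts, such as transfer RNA, Y RNA, ribosomal RNA and messenger RNA. Many of those longer transcripts come from genes or repeats that exist in several copies in a mammalian genome. A short read from such a family fits several positions equally well, and the position it is assigned to depends on the aligner and the counting. The annotation of the 316 loci was not analysed here, so they are named by position and length only.

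Library totals ran from 8941598 to 14664460 counts. At this depth a count of 3, taken as the floor, is between 2.05e-05% and 3.36e-05% of a library, and the lowest count of any of the 316 loci in any sample was 26. Medium 8 stood apart from medium 5 and medium 6: its median count over all deposited loci was 7, against 18 and 23 in medium 5 and 6, 4 to 7 in the small follicles and 14 to 19 in the large. The counts of calls against the medium group, and the share of the set in it, are therefore given with and without this sample.

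The 316 loci took a larger share of the counts in small follicle EVs than in medium or large follicle EVs. They held 47.5%, 50.4% and 45.4% of the counts in small 1, 2 and 4, then 30.4%, 29.9% and 42.9% in medium 5, 6 and 8, and 22.1%, 17.6% and 30.6% in large 10, 11 and 12. The means were 47.8% ± 2.52 (SD, n = 3), 34.4% ± 7.34 and 23.5% ± 6.62, and the medium mean was 30.2% without medium 8. Every small sample lay above every medium and large sample, whereas the medium and large samples overlapped, since large 12 lay above medium 5 and medium 6. No test was made on this sum, because the loci were chosen by their summed count.

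The rest of each library moved as well. The known and homologous miRNA table took 21.4% ± 6.59 of the counts for small, 6.28% ± 4.27 for medium and 2.89% ± 2.39 for large follicle EVs. Within the medium group it took 11.2% in medium 8, against 3.88% and 3.75% in medium 5 and 6, so medium 8 was nearer to the small samples in this measure too. The share of all other loci outside the tables had a mean of 29.99% in small and 71.7% in large follicle EVs, and the part of these shifts in the fall of the 316 loci was not tested. With the miRNA tables left out of the total, the 316 loci still took 61.5% ± 2.00 for small, 37.6% ± 9.88 for medium and 24.8% ± 7.57 for large follicle EVs.

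**Figure D1:**
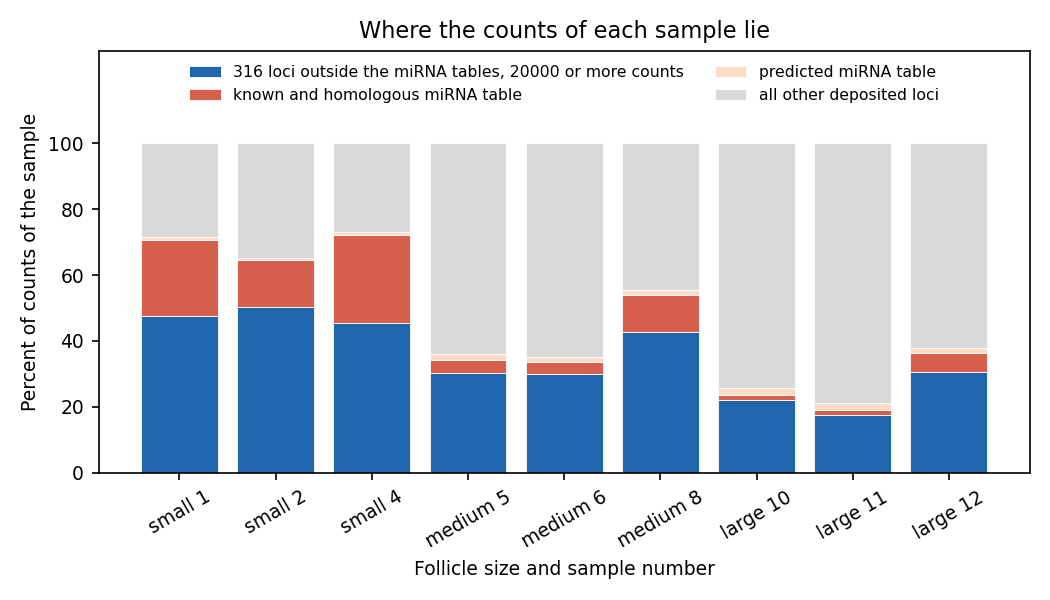
Percent of the counts of each of the 9 samples (stacked to 100%) that lay on the 316 loci, on the 2 miRNA tables and on all other deposited loci. The 316 loci took 45.4% to 50.4% of the small samples and 17.6% to 30.6% of the large ones, and medium 8, at 42.9%, stood above the other medium samples.

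Together the loci held 35356670 counts, 35.4% of all counts deposited. Their totals spanned 20000 to 5381621 with a median of 51277, and 54 loci were over 100000. The first 10 loci held 38.2% of the counts of the set and the first 50 held 66.8%. The threshold cut through a continuum: the last 3 loci inside had 20065, 20041 and 20000 counts, and the first 3 outside had 19997, 19990 and 19976. Because the rule used the sum over all sizes, a locus that was high in a single size could pass, and 150 loci reached 6667 counts, the threshold divided equally over the 3 sizes, in each size. Those 150 held 40.6% ± 2.46 of the counts for small, 29.96% ± 6.60 for medium and 20.4% ± 6.52 for large follicle EVs.

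The highest locus of all was a 16-base stretch at chr29:834909-834924 (+ strand), with 5381621 counts or 15.2% of the set. It took 3.15%, 3.39% and 3.34% of small 1, 2 and 4, then 4.14%, 11.3% and 5.17% of medium 5, 6 and 8, and 7.44%, 4.50% and 6.22% of large 10, 11 and 12. All medium and large samples lay above all small ones, and medium 6 was the highest. Without this locus the share of the set was 44.5% ± 2.49 for small, 27.5% ± 9.57 for medium and 17.4% ± 6.13 for large follicle EVs. Relative to the other loci, that is after scaling by the trimmed mean of M values (TMM), its log2 difference between large and small was -0.84 ± 0.57 (SE; adjusted p = 0.525, edgeR quasi-likelihood test with Benjamini-Hochberg adjustment over all loci), whereas scaling by the total count gave 0.88 (adjusted p = 0.0108).

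The next 6 loci by count lay on the + strand of chromosomes 4 and 6, and each belonged to a pair of neighbouring loci. A 32-base locus at chr6:76856521-76856552 held 1142255 counts, and another at chr4:112950967-112950998 held 1141907. In each of the 9 samples these 2 loci had nearly the same count; on chromosome 6 the counts were 204612, 236952 and 150532 in the small, 72618, 93048 and 185121 in the medium and 59811, 39722 and 99839 in the large samples. The large samples lay below all small samples, and medium 8 lay within the small range when each count was taken as a share of its library (1.74%, against 1.40% to 2.65%). The fall from small to large was 8.99-fold for the chromosome 6 locus after TMM scaling (log2 difference -3.17 ± 0.79 (SE), adjusted p = 0.0343, edgeR) and 2.98-fold after scaling by the total count. Leaving out any one of the small or large samples ended this call (adjusted p from 0.0654 to 0.150), as did limiting the fit to group means of 100 or more (adjusted p = 0.211).

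Each of these 32-base loci was followed 66 bases further on, start to start, by a 27-base locus. At chr4:112951033-112951059 it held 983377 counts and at chr6:76856587-76856613 it held 877108. The chromosome 4 partner took 0.722%, 0.841% and 1.21% of the small samples, 0.429%, 0.575% and 1.80% of the medium samples and 0.636%, 0.786% and 1.93% of the large samples. It thus did not follow its 32-base neighbour: the sizes overlapped, medium 8 and large 12 were the highest, and the log2 difference between large and small was -1.39 ± 0.87 (adjusted p = 0.479, edgeR). The difference between the 2 neighbours was itself not tested.

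The same layout recurred at other places on chromosomes 4 and 6 and on chromosome 10. A 31-base locus at chr4:112970775-112970805 (68427 counts) was followed after 73 bases by a 27-base locus at chr4:112970848-112970874 (738253 counts). A 32-base locus at chr6:31415763-31415794 was followed by a 27-base locus after 82 bases, and one at chr10:69424953-69424984 after 83 bases. On the − strand of chromosome 4, a 32-base locus at chr4:112975222-112975253 had a 27-base neighbour at chr4:112975145-112975171. The 31-base locus at chr4:112931232-112931262 (1086235 counts) was followed after 59 bases by one of 32 bases instead. That 31-base locus took 1.49%, 3.82% and 1.44% of the small samples, 0.465%, 0.782% and 1.30% of the medium and 0.315%, 0.178% and 0.388% of the large. Every small sample lay above every other sample, and the locus was 22.5-fold lower in the large than the small samples after TMM scaling (log2 difference -4.49 ± 0.82, adjusted p = 0.00654, edgeR) and 7.65-fold lower after scaling by the total count. The call ended without large 10 (adjusted p = 0.0510) and with the fit limited to group means of 100 or more (adjusted p = 0.123).

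**Figure D2:**
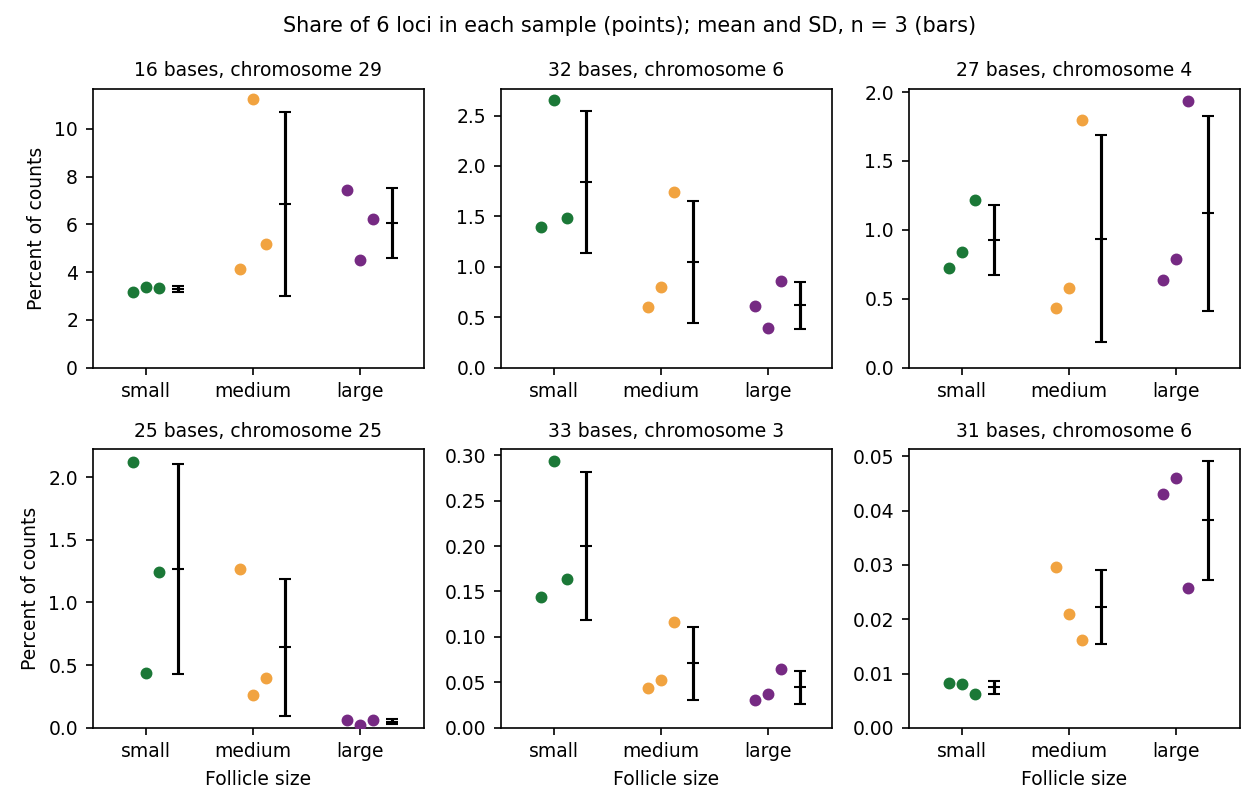
Percent of the counts of each sample on 6 loci of the set (points; linear axes that differ between panels), with the mean and SD of each size beside them (n = 3). The 16-base locus of chromosome 29 was lowest in the small samples, the 25-base locus of chromosome 25 ranged from 0.441% to 2.12% within the small samples alone, and the 31-base locus of chromosome 6 had its highest mean in the large samples.

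Lengths ran from 16 to 57 bases, and the median locus had 33. Mature miRNAs are usually a little over 20 bases, and only 37 of the 316 loci had 18 to 24 bases, against 19 of 16 to 17 bases, 58 of 25 to 30, 125 of 31 to 35, 72 of 36 to 50 and 5 over 50. A length of exactly 33 bases was the commonest, with 60 loci (19.0%), compared with 12.0% of all deposited loci. Many of these 60 repeat a few count profiles, in groups of 16, 15, 11 and 8 loci described below. The wider class of 31 to 35 bases made up 39.6% of the set, against 53.6% of all deposited loci. By counts, loci of 31 to 35 bases took the largest part in small follicle EVs, 21.2% ± 6.60 of the library, and 7.34% ± 2.34 in large. Loci of 16 to 17 bases, among which the chromosome 29 locus held most counts, took 3.97% ± 0.110 in small and 6.42% ± 1.57 in large follicle EVs. These are descriptions of sums over chosen loci and carry no test.

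How fully reads filled a locus also varied with its length. The number at the end of each locus identifier was taken as the read coverage summed over its bases, and dividing it by the summed count and the length gives the mean fraction of a locus that its reads covered, pooled over all samples. Its median was 0.896 over the 316 loci, and 86 of them (27.2%) were at 0.95 or more, where reads spanned nearly the whole locus. The median was 0.966 for loci of 16 to 17 bases, 0.943 for 31 to 35 bases, 0.692 for 36 to 50 bases and 0.437 for the 5 loci over 50 bases. The loci over 50 bases were longer than any read could be, since the study sequenced 50 cycles, so values under 1 were fixed there in advance. Over all deposited loci the same ratio ran from 0.144 to 328, although a fraction cannot exceed 1. This reading of the number thus did not hold for every deposited locus, while the 316 loci stayed between 0.436 and 0.9996.

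Most of the 316 loci were not alone in their counts. When loci were put together if their lengths differed by at most 1 base and their 9 counts did not differ by a chi-square test (p above 0.001), 250 loci (79.1%) fell into 51 groups and 66 stood alone. Of the groups, 34 had 3 or more loci, 18 had 5 or more and 6 had 10 or more, the largest with 17. Within a group the highest total was at most 1.05 times the lowest, and 42 groups had loci on more than one chromosome. Loci in groups held 60.6% of the counts of the set, so the 316 loci amounted to 117 distinct count profiles. How reads with several equally good positions were counted is not given in the sources used here. A group may thus hold the same reads more than once, which was not tested. With only the first locus of each group kept, the share of the set was 20.5% ± 2.52 for small, 20.3% ± 5.31 for medium and 15.99% ± 4.86 for large follicle EVs, so that small and medium overlapped. The total was left at all deposited counts here, companions included. These values are therefore not the shares after removal of repeated reads.

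**Figure D3:**
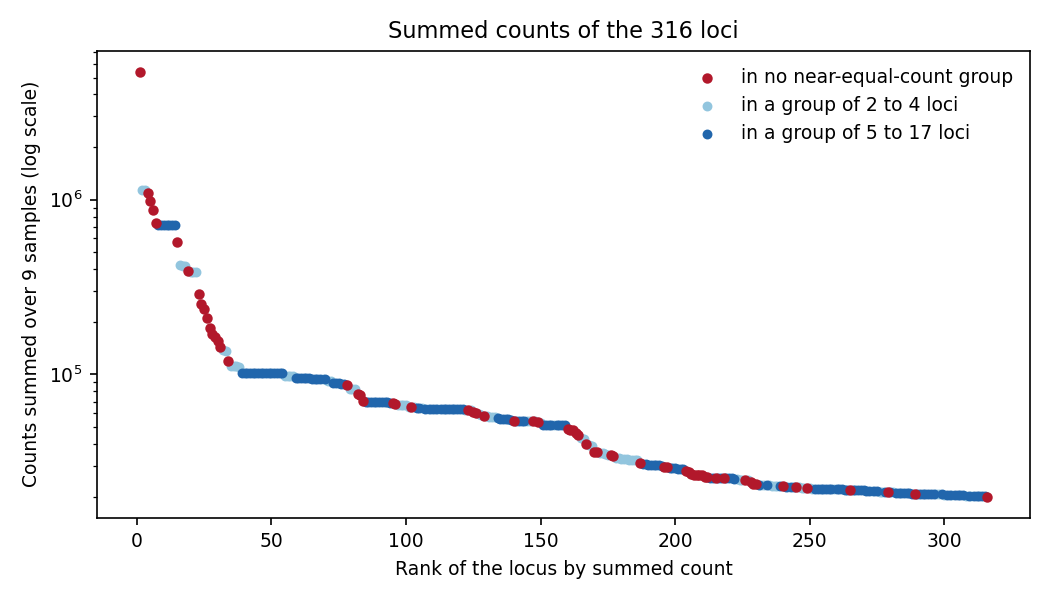
Counts summed over the 9 samples (log scale) for the 316 loci in order of rank, coloured by whether a locus shared its counts with others of like length. The level stretches are groups of near-equal counts, such as the 7 loci of 716069 to 718554 counts and the 16 loci of 101518 to 102181 counts.

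The group with most counts consisted of 7 loci of 25 bases within one stretch of chromosome 25, from chr25:32465610-32465634 to chr25:32471121-32471145, all on the + strand. Each held between 716069 and 718554 counts, and together they held 5018066, or 5.03% of all counts. In small 1, 2 and 4 the 7 loci took 14.8%, 3.09% and 8.70% of the library, in medium 5, 6 and 8 they took 8.84%, 1.84% and 2.78%, and in large 10, 11 and 12 they took 0.430%, 0.170% and 0.442%. All large samples lay below all others, whereas small and medium overlapped, with small 1 and medium 5 the highest of their sizes. The locus at chr25:32471121-32471145 was 85.8-fold lower in the large than the small samples (log2 difference -6.42 ± 1.00 (SE), adjusted p = 0.00281, edgeR), and 25.4-fold lower after scaling by the total count. Its difference between medium and small was -2.43 ± 0.83 (adjusted p = 0.254).

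Several of the larger groups were made of 33-base loci. One group of 16 loci lay on chromosomes 3, 7 and 23 and held 101518 to 102181 counts each. Its first locus, chr3:21029529-21029561, took 0.144%, 0.293% and 0.163% of the small samples, 0.0435%, 0.0527% and 0.117% of the medium and 0.0308%, 0.0377% and 0.0647% of the large. The small samples were above all others, medium 8 was the nearest to them, and the fall from small to large was 13.6-fold (log2 difference -3.77 ± 0.75, adjusted p = 0.0103, edgeR), or 4.50-fold after scaling by the total count, and the call ended without large 10 (adjusted p = 0.068) or large 11 (adjusted p = 0.0658). A group of 15 such loci held 63362 to 64057 counts each, another of 11 held 94092 to 95361, and one of 8 held 25236 to 25698. In a window of chromosome 3 chosen after the values were seen (chr3:20910419-21444982), all 33 loci of the set were 33 bases long and together held 2779042 counts, with 17 on the + and 16 on the − strand. A similar window of chromosome 23 (chr23:29889143-31330810) held 12 loci, 10 of them of 33 bases.

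The largest group by number, 17 loci of 35 to 37 bases on 15 chromosomes, held 20760 to 21735 counts each and began with chr21:60891364-60891399. These loci took 0.532% ± 0.170 of the counts for small, 0.347% ± 0.0564 for medium and 0.201% ± 0.126 for large follicle EVs when summed. All 17 fell between small and large, with log2 differences of -3.01 to -2.88. Over all loci tested 5.63% were called lower. The 17 loci share their counts and are not separate observations. The first had 10677, 7076 and 3982 counts in the small, medium and large samples. It thus passed the threshold mostly through small and medium, and the fall of these 17 loci carries that limit. Besides them, 10 loci of 24 bases with 68891 to 69743 counts each, 8 of them on the − strand, began with chr19:43937877-43937900 and took 1.28% ± 0.469 in small and 0.260% ± 0.131 in large follicle EVs.

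The plateaus did not stop at the threshold. Among loci outside the tables with 10000 or more counts, the largest group comprised 615 loci of 40 to 41 bases on 29 chromosomes, each with 17306 to 18527 counts, and none of them was inside the set. Groups of 124, 92 and 64 loci of similar length followed. The group of 6 loci that began with chr29:198254-198294 (41 bases) had 13 further loci with matching counts just under 20000. The last locus inside, chr15:26601785-26601830 (46 bases, 20000 counts), matched chr8:36079477-36079522 (46 bases, 19997 counts). The membership of such loci thus turned on a few counts.

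Groups also reached into the predicted miRNA table. Of the 5 predicted loci with 20000 or more counts, 4 had the length and the counts of loci of the set. A predicted locus at chr6:89217312-89217341 (30 bases, 62718 counts) and another at chr6:89208037-89208066 (62266 counts) matched a pair of the set with 62319 and 62545 counts. One at chr26:33523680-33523696 (17 bases, 91933 counts) matched the group of 3 loci that began with chr14:9462539-9462555, and one at chr18:22622903-22622918 (16 bases, 22833 counts) matched the group of 3 that began with chr8:89663095-89663110. No locus of the known and homologous table matched a group or a lone locus of the set at this p.

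By position, 188 of the 316 loci (59.5%) lay within 10 kb of another and formed 51 clusters, of which 19 had 3 or more loci. The loci were spread over 31 chromosomes, the mitochondrial genome counted among them, with 43 on chromosome 3, 27 on chromosome 18 and 21 on chromosome 6. A single locus, of 25 bases at position 1453 to 1477, lay on the mitochondrial genome. The mitochondrial locus took 0.0397%, 0.0589% and 0.0642% of the small, 0.0132%, 0.0191% and 0.0874% of the medium and 0.0136%, 0.0133% and 0.0543% of the large samples. Medium 8 was the highest and large 12 lay within the small range, and the log2 difference between large and small of -2.59 ± 1.00 had an adjusted p of 0.201 (edgeR).

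Several clusters were tandem arrays. On chromosome 25, 15 loci of 25 bases filled 6.45 kb. Except at the end, where a low locus followed a low one, they alternated between the group of 716069 to 718554 counts and a group of 8 loci with 51259 to 51635 counts each. Each of the 7 high loci was followed by a low locus after exactly 130 bases, and the high loci were spaced by 833 to 967 bases. The low locus at chr25:32470374-32470398 had 18353, 4825 and 9874 counts in the small, 4973, 2409 and 4788 in the medium and 1161, 1206 and 4046 in the large samples. It lay 15.1-fold lower in the large than the small samples (log2 difference -3.92 ± 0.80, adjusted p = 0.0122, edgeR), or 4.73-fold after scaling by the total count, and the call ended without large 10 (adjusted p = 0.0722) or large 11 (adjusted p = 0.0684). As a share of the library medium 5 (0.0412%) lay below medium 8 (0.0450%), unlike at the high loci.

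On chromosome X, 14 loci on the − strand filled 3.62 kb from chr X position 62078363. They held 4 loci of 32 bases with 110888 to 111690 counts, 4 of 44 bases with 22650 to 23277 and 3 of 42 bases with 33007 to 33210, and each kind was repeated at 979 to 1136 bases. The locus at chrX:62080386-62080417 had a log2 difference of -2.40 ± 0.79 between large and small (adjusted p = 0.123, edgeR), and 8 of the 14 loci passed the test, all lower. Over all loci tested 5.63% were called lower. Loci of the same near-equal group are not separate observations. The 42-base locus at chrX:62079763-62079804 passed the threshold through the small samples, with 22031 counts there, 6470 in medium and 4709 in large. On chromosome 7, 8 loci filled 2.21 kb from chr7:31760787-31760820, where a 34-base locus was followed after 47 bases by one of 21 bases, and this unit occurred 3 times at 1056 to 1085 bases. The 34-base loci held 386037 to 387123 counts each and the 21-base loci 28694 to 28984. All 8 loci of chromosome 7 were lower in the large than the small samples, with a median log2 difference of -5.59. They repeat 3 count profiles and are not separate observations. The 34-base loci held 1159773 of the 1287517 counts of the cluster. Summed, they had a log2 difference of -2.95 (adjusted p = 0.0381, edgeR). The 21-base locus at chr7:31762975-31762995 had 18126, 9430 and 1138 counts in the small, medium and large samples. The 16-base locus at chr7:31761158-31761173 had 16398, 3507 and 738. These 2 passed the threshold mostly through small and medium.

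A series of loci with fixed lengths and spacings was shared between chromosomes 2, 3, 8 and 18. On chromosome 8 the cluster from chr8:25409509-25409544 to chr8:25410017-25410071 comprised, in order, loci of 36, 22, 31, 35 and 55 bases with 32656, 56331, 25149, 82679 and 63889 counts. Loci with the counts of the first were followed by those with the counts of the second after 133 bases on chromosomes 2, 3 and 8 and after 134 bases at another place on chromosome 2. The third came 90 or 91 bases after the second on the same 3 chromosomes. The fourth came 238 or 239 bases after the third and the fifth 45 or 46 bases after the fourth, both on chromosomes 2, 8 and 18. The chromosome 2 cluster had 13 loci in 2.49 kb, and a 57-base locus opened it at chr2:66268411-66268467 as one did on chromosome 3 at chr3:35810298-35810354.

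The cluster with most loci lay on chromosome 18, where 24 loci filled 20.7 kb from chr18:58222859-58222886 to chr18:58243554-58243577, 10 on the + and 14 on the − strand. It held 7 loci of 35 bases with 20567 to 20914 counts and 6 of 17 bases with 20065 to 20533. Its summed share was 1.34% ± 0.199 for small, 0.723% ± 0.394 for medium and 0.300% ± 0.118 for large follicle EVs. The 35-base locus at chr18:58237248-58237282 had 13281, 5325 and 2308 counts in the small, medium and large samples. The 16-base locus at chr18:58226069-58226084 had 16431, 3421 and 729. Both thus passed the threshold mostly through small and medium. Loci of the same near-equal group are not separate observations. Over all loci tested 5.63% were called lower. Of the 24 loci, 16 fell between small and large (median log2 difference -4.15). The 6 loci of 17 bases were not among them: the one at chr18:58236586-58236602 had a log2 difference of -3.52 ± 1.09 with an adjusted p of 0.0938 (edgeR), and together the 6 were highest on average in medium follicle EVs, at 0.234% ± 0.0906 against 0.0981% ± 0.0993 in small and 0.0290% ± 0.0286 in large.

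**Figure D4:**
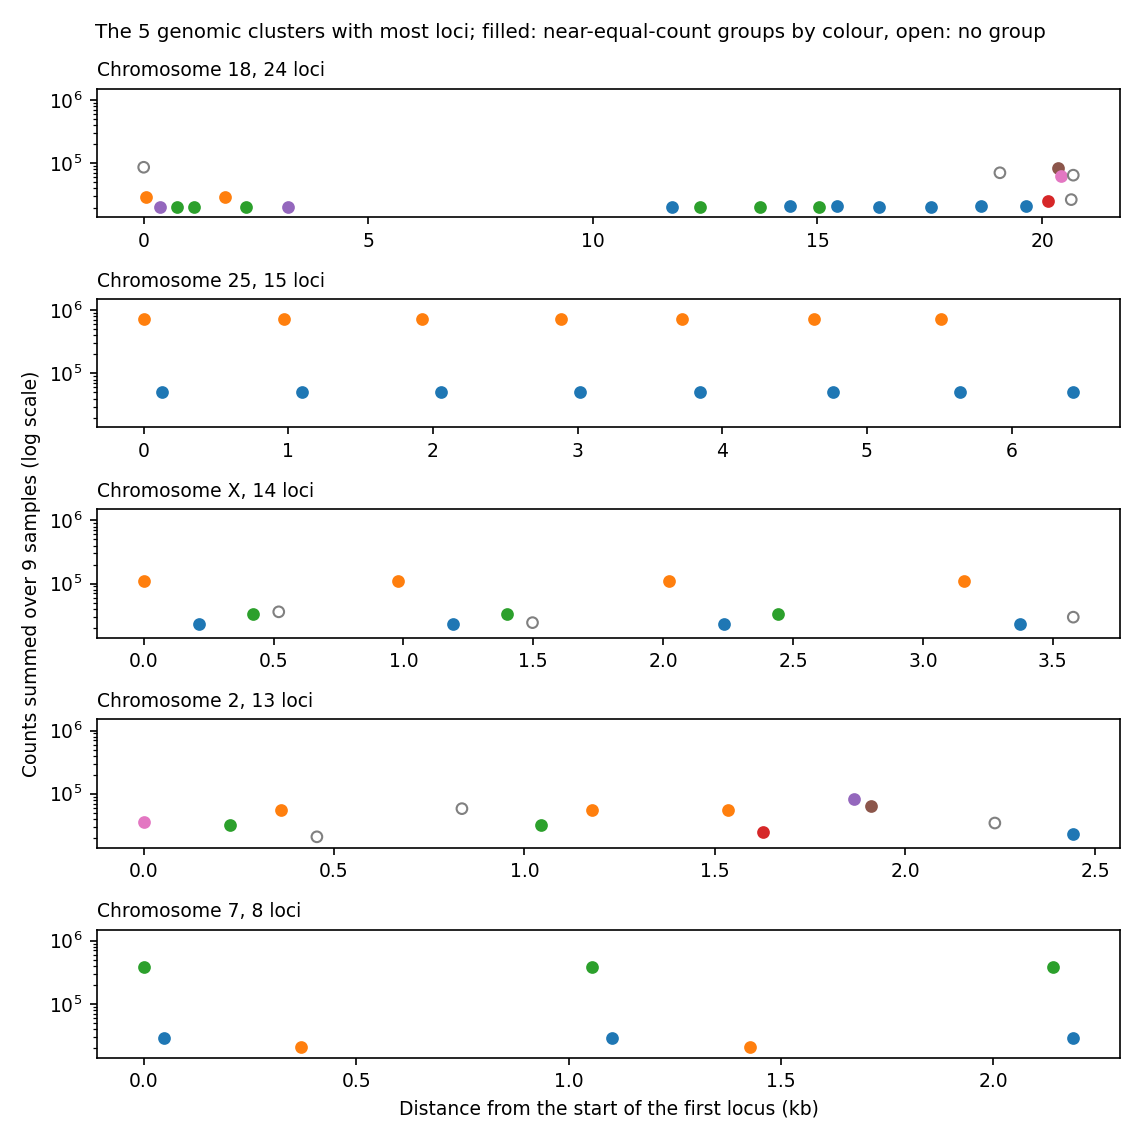
Summed counts (log scale) of the loci in the 5 clusters with most loci, against the distance in kb from the start of the first locus; filled points of one colour within a panel share near-equal counts and open points stand alone. On chromosome 25 the 2 levels alternate along the cluster except at its end, where a low locus follows a low one. On chromosomes X and 7 the same levels recur at about 1 kb.

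The question put to the follicle sizes was which loci changed as follicles grew. The fit covered 85601 loci that passed a filter on low counts, all 316 among them. Between large and small follicle EVs, 194 of the 316 loci passed a false discovery rate (FDR) of 0.05 and all 194 were lower in large. Over all loci tested 5.86% were called, 0.231% as higher and 5.63% as lower. A locus that passed the count threshold only through a size where it was high had to differ, so these counts describe the set and are no support for a difference. Of the 150 loci that reached 6667 counts in each size, 90 were called, all lower, with a median log2 difference of -3.69 (-2.07 after scaling by the total count), and of the other 166 loci 104 were, all lower, with a median of -3.46 (-1.78). None of the 316 was higher by this test, and at an unadjusted p under 0.05 the numbers were 0 higher and 231 lower. The edgeR exact test called 215 lower and DESeq2 205, with 0 higher in both, where they called 7.37% and 10.6% of all loci tested lower. The median log2 difference of the 316 loci was -3.58, compared with 0.09 for all loci tested, -0.06 for the 1259 loci outside the tables with 10000 to under 20000 counts and -4.73 for the 71 loci of the miRNA tables with 20000 or more. In those last groups 62 of 1259 (4.92%) and 51 of 71 loci (71.8%) were called. The call count was 77 without large 10 and also 77 without large 11, where 2706 and 2408 of the 85601 loci tested were called. Counted as distinct profiles, with each group summed, 57 of 117 were lower and 0 higher, 30 of the 57 being groups.

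The deepest falls were those of a group of 5 loci of 22 bases. The locus at chr2:66269947-66269968 had 1357, 1644 and 4490 normalized CPM (counts scaled to a common library size by TMM) in the small samples, 443.7, 224.9 and 582.0 in the medium samples and 23.98, 15.8 and 28.4 in the large samples. The 3 sizes did not overlap, small 4 was the highest, and the locus was 110-fold lower in the large than the small samples (log2 difference -6.78 ± 0.68 (SE), adjusted p = 0.000529, edgeR), and 32.1-fold lower after scaling by the total count. It reached the threshold through the small and medium samples, with 36906 and 17287 counts there and 1142 in the large ones, so a low value in large was part of how it passed. Its 4 companions, at chr8:25409642-25409663, chr2:66268772-66268793, chr2:66269589-66269610 and chr3:35810659-35810680, had log2 differences of -6.71, -6.69, -6.66 and -6.63. They share the counts of the first and are not separate evidence.

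Calls by length class are given here beside the 5.63% of all loci tested that were called lower. Of the 125 loci of 31 to 35 bases, 89 were lower in large (median log2 difference -3.71), and of the 37 loci of 18 to 24 bases, 28 were (median -3.95). Of the 58 loci of 25 to 30 bases 30 were lower, of the 19 of 16 to 17 bases 9, of the 72 of 36 to 50 bases 33 (median -1.37), and of the 5 over 50 bases all 5. Loci in near-equal groups made up 170 of the 194 calls, out of 250, and lone loci 24, out of 66. Loci of one group repeat one profile and are not separate observations, and with each group summed 30 of the 51 groups were called. The share called among all loci of each length was not counted, and no difference between the classes was tested.

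**Figure D5:**
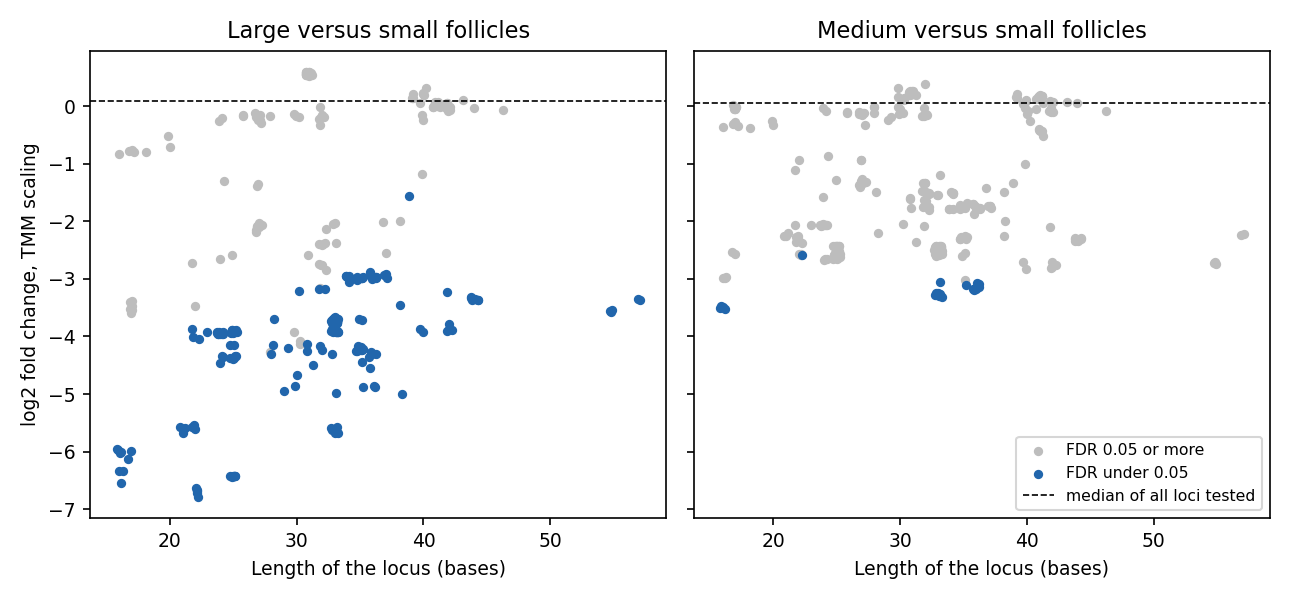
The log2 fold change (TMM scaling) of each of the 316 loci against its length in bases (points spread sideways by up to 0.3 bases), for large against small follicles at left and medium against small at right, with called loci in blue and the median of all loci tested as a dashed line. At left 194 loci were called, all below the line, and a separate set of loci lay near it; at right 21 were called.

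A second set of loci had a higher share of the library in larger follicles. The mean share followed the order small, medium, large, from high to low, for 211 loci with 62.3% of the counts of the set, and followed the order large, medium, small for 78 loci with 16.1% of the counts. For those 78 the median log2 difference between large and small was 0.00 after TMM scaling and 1.71 after scaling by the total count. These loci were put together by the order of the same shares, so the values are a description and carry no test. Scaling by the total count moved the median of all loci tested from 0.09 to 1.81 and called 59.5% of all loci higher, so the median of these 78 loci lay close to that of all loci under both scalings. For the whole set, scaling by the total count gave 79 loci higher and 210 lower, in place of 0 and 194; over all loci tested 64.5% were then called, 59.5% as higher and 5.02% as lower.

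The 14 loci of 31 bases that began with chr6:19800752-19800782 were the clearest of these. That locus took 0.00824%, 0.00803% and 0.00614% of the small samples, 0.0297%, 0.0209% and 0.0161% of the medium and 0.0430%, 0.0459% and 0.0257% of the large. In that locus every large sample lay above every small sample, on the share as well as on the TMM scale. Its log2 difference was 0.58 ± 0.36 after TMM scaling (adjusted p = 0.469, edgeR) and 2.35 after scaling by the total count (adjusted p = 0.000131). On that last scaling 59.5% of all loci tested were called higher. How many of all loci separated in the same way was not counted. The other loci of the group have nearly the same counts and are not separate observations. All 4 loci of a cluster of 11.4 kb on chromosome 27, on the − strand, and all 3 of a cluster of 6.66 kb on chromosome 22, on the + strand, belonged to this group.

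Other groups of this kind were 8 loci of 41 bases that began with chr8:10197006-10197046, 5 of 27 bases that began with chr5:104803377-104803403, 4 of 32 bases that began with chr17:37120872-37120903, 4 of 42 bases that began with chr5:97145070-97145111 and the 6 of 41 bases on chromosome 29 and elsewhere. The chromosome 8 locus took 0.0131% ± 0.000924 of the small, 0.0352% ± 0.00251 of the medium and 0.0447% ± 0.00896 of the large libraries. Its log2 difference between large and small was 0.01 ± 0.38 after TMM scaling (adjusted p = 0.998, edgeR) and 1.77 after scaling by the total count (adjusted p = 0.000216).

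In a smaller set the medium follicles had the highest mean share, 15 loci in the order medium, small, large and 7 in the order medium, large, small. Of the former, 9 were 28 to 30 bases long and 6 were the 17-base loci of chromosome 18. The locus at chr16:2058444-2058473 (30 bases, 253851 counts) took 0.238%, 0.111% and 0.284% of the small, 0.606%, 0.136% and 0.736% of the medium and 0.00872%, 0.00704% and 0.0961% of the large samples. Medium 5 and medium 8 were high and medium 6 was not, so the medium mean rested on 2 of its 3 samples. Its log2 difference between medium and small was 0.11 ± 1.10 (adjusted p = 1.00, edgeR), or -0.93 without medium 8 (adjusted p = 0.776), and that between large and small was -4.08 ± 1.24 (adjusted p = 0.0882). Loci of the same 30 bases on chromosome 15 (chr15:84102581-84102610, 237269 counts) and chromosome 7 (chr7:41736337-41736366, 163048 counts) showed the same order of sizes. The 7 loci of the other order included the chromosome 29 locus and the group of 3 loci of 17 bases.

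Between medium and small follicle EVs 21 of the 316 loci were called, all lower, while 1.47% of all loci tested were called, 0.0105% as higher and 1.46% as lower. The median log2 difference of the set was -1.84, and 189 loci were lower and 0 higher at an unadjusted p under 0.05. This count turned on single libraries. Without medium 8 it was 207, all lower, with 6.38% of all loci tested called lower, and without small 1, medium 5 or medium 6 it was 0. In 308 of the 316 loci medium 8 had the highest TMM-normalized value of the medium samples, and the median ratio of its value to the small mean was 0.522, against 0.143 in medium 5 and 0.0917 in medium 6. A smaller TMM factor raises normalized values, and the factor was 0.725 in medium 8, 1.45 in medium 5 and 1.91 in medium 6. How often medium 8 was highest over all loci tested was not counted, and loci of a group are not separate observations. The edgeR exact test called 98 loci and DESeq2 124, all lower, where they called 3.19% and 5.50% of all loci tested lower.

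Of the 21 loci, 20 belonged to 5 near-equal groups. They were all 8 loci of the group that began with chr23:30021493-30021525, all 4 of 16 bases that began with chr7:31761158-31761173, all 4 of 36 bases that began with chr8:25409509-25409544, all 3 of the group with chr8:25409972-25410006, and 1 of the 5 loci of 22 bases. The lone locus was chr8:83510209-83510241 (33 bases). The 16-base locus at chr18:58226069-58226084 had 1406, 797.7 and 620.8 normalized CPM in the small samples, 64.0, 62.0 and 118.8 in the medium samples and 16.9, 8.4 and 18.6 in the large samples. The 3 sizes did not overlap, and the fall was 11.5-fold from small to medium (log2 difference -3.53 ± 0.50, adjusted p = 0.0113) and 64.3-fold from small to large (adjusted p = 0.000474, edgeR). After scaling by the total count these were 4.68-fold and 20.1-fold. This locus passed the threshold mostly through the small samples, with 16431 counts there, 3421 in medium and 729 in large. Low values in the other sizes were thus part of how it passed. The call between medium and small ended without small 1 (adjusted p = 0.0533), medium 5 (0.0966) or medium 6 (0.0609). The 33-base locus at chr23:29889184-29889216 fell 9.96-fold from small to medium (adjusted p = 0.0254, edgeR), or 4.83-fold after scaling by the total count, with 69.1, 47.0 and 255.6 normalized CPM in medium 5, 6 and 8 and at least 1098 in the small samples. This call held without medium 8 (adjusted p = 0.000150) and ended without any other one of the small or medium samples (adjusted p from 0.0698 to 0.167) or with only these 2 sizes in the fit (adjusted p = 0.0711). The chromosome 23 locus also passed the threshold mostly through the small samples, with 19794 counts there, 4231 in medium and 1211 in large. Its fall carries the same limit.

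Between large and medium follicle EVs no locus of the 316, and none of the 85601 tested, passed the FDR in the edgeR quasi-likelihood test. In the set, 102 loci had an unadjusted p under 0.05, all lower in large, and the edgeR exact test called 29 and DESeq2 48, all lower in large, against 0.556% and 1.38% of all loci tested. The median log2 difference was -1.21 with medium 8 and 0.03 without it. The comparisons share samples, large with small and medium with small both using the 3 small samples, so their values are not independent of each other. Over all 3 sizes together, a test of any difference called 178 of the 316 loci and 4000 of all loci tested.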

How the data were processed

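Small RNA of EVs isolated by ultracentrifugation from 9 pools of bovine follicular fluid had been sequenced by the authors as single reads, aligned to UMD3.1 with BWA 0.7.5a, and joined into loci with at least 45 reads per base on average. The deposited values are raw read counts per locus and sample, not normalized; strand and coordinates are those of the locus identifiers, read as 1-based. The treatment of multiply mapped reads is not given in the sources used here. Samples were grouped by follicle size from the labels, which give no batch or pairing; per the study's methods each collection of ovaries gave fluid of every size, but the labels do not tie a sample to a collection. Since pools were separate but the animals are not named, p-values measure the spread between pools.

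Loci with 20000 or more summed counts that were not in the study's 2 miRNA tables were kept. Both this rule and the lists of loci named were chosen with earlier results of these data known. Shares are percentages of all deposited counts of a sample, the floor of 3 counts covers counting error only, and values after ± are SDs between pools or standard errors of the edgeR fit. All 9 samples were fitted with edgeR 4.0.16 (R 4.3.3; filterByExpr, TMM, quasi-likelihood F test, two-sided), with Benjamini-Hochberg adjustment over all 85601 loci and an FDR of 0.05; DESeq2 1.42.0, the edgeR exact test, other scalings, filters and each sample left out were alternatives. Near-equal groups were built from the highest count down (chi-square p above 0.001 against the group mean, length within 1 base), and clusters by gaps of at most 10 kb. The scripts were tested on simulated data. Python 3.11.15, pandas and scipy were used for tables. Named loci were the 10 with the highest summed count, up to 5 largest rises and falls per comparison among called loci whose groups did not overlap, the first locus of each near-equal group of 3 or more, loci of clusters of 3 or more or their ends and highest, the 3 loci on each side of the threshold, and the shortest and longest. Loci outside these rules (the mitochondrial locus, the second loci of pairs on chromosomes 4 and 6, the pair on chromosome 10, other companions in a group and the matching loci outside the set) were chosen after their values were seen. No sequence is shown, as no genome of this build was used here.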

Additional observations from a re-analysis of the deposited data

How the results depend on the processing

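No paired analysis was possible because the replicate numbers in the labels are not shared between sizes. Pools of different sizes may come from the same collection of ovaries, which the labels do not give, so a shared collection could not be fitted. Between large and small, the count of loci called stayed within 1.5 times of 194 under each alternative except leaving out a sample (77 to 226, the lowest without large 10 or large 11). The total count of all deposited loci, and of the loci outside the set, gave 79 and 71 higher beside 210 and 206 lower, and a fit limited to group means of 100 or more gave 19 higher and 196 lower. Over all 85601 loci tested, these 2 total counts called 50955 and 17873 higher beside 4296 and 4529 lower. The fit limited to group means called 290 higher and 2050 lower of 11770. With a sample left out, 2408 to 6998 of the 85601 were called. Between medium and small, the 21 calls became 98 (edgeR exact test), 124 (DESeq2), 218 (total count), 64 (total count outside the set), 93 (group mean of at least 100), 4 (only these 2 sizes in the fit) and 53 (FDR under 0.1), and 0 to 207 with a sample left out. They were all lower except 72 higher and 146 lower with the total count, 19 and 45 with the total count outside the set, and 2 and 91 with group means of at least 100. Over all 85601 loci tested, the 2 total counts called 24032 higher and 2332 lower, and 96 and 542. The fit with group means of at least 100 called 25 and 918 of 11770. The edgeR exact test and DESeq2 called 3.19% and 5.50% lower. Of the 85601, 714 were called with only these 2 sizes, 2218 at an FDR under 0.1 and 0 to 5834 with a sample left out. Between large and medium, the 0 calls became 29, 48, 39, 22 and 15 under the first 5 alternatives listed for medium and small, in that order. Each of these calls was lower in large, and the number stayed at 0 with any sample left out. Over all loci tested, the same 5 alternatives called 508, 615, 138, 67 and 42. The loci tested numbered 85601, 43922, 85601, 85601 and 11770. The causes were not tested.

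The share of the set (main means 47.8%, 34.4% and 23.5%) became 51.1% in small with a denominator limited to group means of 100 or more and 61.5% with one outside the miRNA tables. A threshold of 10000 gave 58.9%, 57.2% and 53.1% in small, medium and large, and one of 50000 gave 42.6% in small. It was 44.5% in small without the highest locus, 40.6% with loci past 6667 counts in each size, and 20.5%, 20.3% and 15.99% with the first locus of each group over the unchanged total. Leaving out a sample gave 46.4% to 49.0% in small, 30.2% to 36.6% in medium and 19.9% to 26.4% in large. Near-equal groups numbered 51, or 104 at a threshold of 10000, and clusters 51, or 31 at a largest gap of 1 kb.

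Scaling by the total count called 59.5% of all loci tested higher in large than small, and the total count outside the set called 17873 of 85601. Of the loci named for one of the highest counts, a largest fall or a near-equal group, 7 that were not called turned to a called rise between large and small on scaling by the total count. The log2 difference became 0.88 for chr29:834909-834924, 1.37 for chr4:112970848-112970874, 0.93 for chr14:9462539-9462555, 1.51 for chr17:37120872-37120903, 1.59 for chr5:104803377-104803403, 1.64 for chr5:97145070-97145111 and 1.63 for chr29:198254-198294. The last 4 were also called higher, at 0.94, 1.03, 1.08 and 1.05, with the total count outside the set. Apart from these, the 51 loci so named for large against small and 5 for medium against small lost their call 4 times and gained one 19 times under the alternatives that keep all samples, and 67 and 6 times with a sample left out. Signs that turned without a call, under other alternatives too, are not counted here. The precision rests on 3 pools per size, and each locus had at least 26 counts in each sample.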
